A study of Mus musculus with 54 samples.

Results

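The genes Tbx3, Sall4, Prdm14, Zfp42 and Utf1, 5 regulators and markers of naive pluripotency, were described by the accessible regions around them in a merged list of ATAC-seq peaks from mouse embryonic stem (ES) cells. A peak belonged to a gene when its centre lay within 50 kb of any of the gene's annotated transcription start sites (TSSs). This rule gave 91 of the 113737 peaks of the list, and 5 of 21938 protein-coding genes. No peak was shared between the 5 genes. Of the 91 peaks, 10 had their centre within 1 kb of a TSS of the gene itself (TSS peaks), 14 lay within 1 kb of a TSS of another gene, and 67 lay more than 1 kb from every annotated TSS (distal peaks).

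ATAC-seq marks open DNA by the insertion of the Tn5 transposase. The cells were ZHBTc4, an ES cell line in which a Tet-Off promoter controls Pou5f1, which encodes OCT4, so that doxycycline (dox) silences this untagged Pou5f1. They carried mCherry-OCT4-AID, an OCT4 fusion expressed at a low level from the PGK promoter that is degraded in the presence of the auxin indole-3-acetic acid (IAA), the TIR1-V5 transgene for the ubiquitin ligase component that this degradation requires, and YPet-MD, a reporter of the cell cycle. The line was a sorted population and not a single clone, and was grown in serum with LIF, CHIR99021 and PD184352. All groups received 1 ug/ml dox, so that the controls without IAA shared the silencing of the untagged, Tet-Off-controlled Pou5f1. The labels give 54 samples in 24 groups. A cell cycle set of 22 samples had 26 hr of dox with 500 nM IAA for 2 hr or none, in cells sorted as Early G1, Late G1, S and Late S/G2, with 2 or 3 samples a group. A washout set of 16 samples had 31 hr of dox and IAA for 2.5 hr or none, followed by 4.5 hr without the drug, in the same phases. A time course of 16 unsorted samples had 34 hr of dox and IAA for 30 min, 1, 2, 3, 4, 6 or 10 hr or none. The list merges the peaks of these experiments into 1 set of start and end positions with no height, count or score. It therefore held no value for any sample, no comparison between groups could be made from it, and the sequencing depth behind a peak is unknown.

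Naive pluripotency is the state of the preimplantation epiblast, which ES cells keep in culture with LIF and inhibitors of the MEK and GSK3 kinases. It rests on a network of transcription factors in which OCT4 and SOX2 bind side by side on composite motifs, mostly in distal enhancers. Tbx3 encodes a T-box factor that can sustain self-renewal downstream of LIF signalling, Sall4 a zinc finger factor that partners with OCT4 and NANOG, and Prdm14 a PR-domain repressor of FGF signalling and DNA methylation that is also needed for germ cells. Zfp42 encodes REX1, a zinc finger protein and widely used marker of the naive state, and Utf1 a chromatin-associated factor of undifferentiated cells whose enhancer, on the 3′ side of the gene, is a classical target of OCT4 with SOX2.

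The sequences below were chosen because they hold the matches to known motifs that the results describe. Coordinates are GRCm38, sequences run 5′ to 3′ on the strand given, and capitals mark the match. The composite OCT4::SOX2 motif was searched as CATTGT, 1 free base and ATGCAAAT with up to 2 mismatches. The other motifs printed here, OCT (ATGCAAAT), SOX (CCATTGT), KLF (GGGNGTGGC), ESRRB (TCAAGGTCA), STAT3 (TTCCNGGAA) and TBX (AGGTGTGA), were searched without mismatches, all on both strands. No printed stretch overlaps an annotated exon.
Utf1, distal peak past the 3′ end, chr7:139945588-139945787, minus strand, OCT4::SOX2: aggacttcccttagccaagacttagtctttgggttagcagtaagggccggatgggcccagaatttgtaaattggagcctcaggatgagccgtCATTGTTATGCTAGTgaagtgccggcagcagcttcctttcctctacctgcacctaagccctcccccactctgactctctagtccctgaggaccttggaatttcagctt
Zfp42, bases before the RefSeq start, within the TSS peak, chr8:43307010-43307259, minus strand, OCT on the opposite strand: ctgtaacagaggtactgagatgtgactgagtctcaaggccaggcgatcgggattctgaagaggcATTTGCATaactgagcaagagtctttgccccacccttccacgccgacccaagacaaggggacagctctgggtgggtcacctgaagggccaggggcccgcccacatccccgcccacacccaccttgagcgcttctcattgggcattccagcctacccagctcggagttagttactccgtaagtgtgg
Zfp42, upstream distal peak, chr8:43320594-43320851, plus strand, STAT3 then KLF: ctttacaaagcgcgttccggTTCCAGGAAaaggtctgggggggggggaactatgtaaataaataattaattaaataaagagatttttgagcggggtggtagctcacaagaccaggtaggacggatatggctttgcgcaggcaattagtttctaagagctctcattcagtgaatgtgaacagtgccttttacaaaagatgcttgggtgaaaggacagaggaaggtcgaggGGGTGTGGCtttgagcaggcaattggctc
Sall4, nearest upstream distal peak, chr2:168769423-168769469, plus strand, SOX: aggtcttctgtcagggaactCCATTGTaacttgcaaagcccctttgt
Sall4, same peak, chr2:168769808-168769856, minus strand, ESRRB: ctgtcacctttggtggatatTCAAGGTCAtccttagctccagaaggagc
Prdm14, distal peak in the gene, chr1:13115353-13115401, plus strand, ESRRB: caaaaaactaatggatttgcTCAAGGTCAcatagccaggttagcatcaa
Prdm14, nearest upstream distal peak, chr1:13131770-13131818, minus strand, ESRRB: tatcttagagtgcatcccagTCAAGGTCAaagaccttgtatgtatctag
Prdm14, downstream distal peak, chr1:13094721-13094769, plus strand, STAT3: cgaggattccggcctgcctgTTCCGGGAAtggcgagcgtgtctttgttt
Tbx3, widest distal peak, chr5:119712612-119712658, plus strand, SOX: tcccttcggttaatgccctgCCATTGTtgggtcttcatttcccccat
Tbx3, downstream distal peak, chr5:119710356-119710403, plus strand, TBX: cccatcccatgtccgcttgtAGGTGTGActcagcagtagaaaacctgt

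Each of the 5 genes had a peak at its TSS, as had 70.8% of protein-coding genes. The peak was narrow at Zfp42 (621 bp) and Sall4 (723 bp), close to the middle of all genes at Utf1 (1287 bp), and wide at Tbx3 (1558 bp) and Prdm14 (2241 bp). Among the 15530 other protein-coding genes with a TSS peak the median width was 1172 bp, with 514 bp at the 10th and 1754 bp at the 90th percentile. The widths of the members stood at percentile 12.8 for Zfp42, 16.4 for Sall4, 62.0 for Utf1, 82.1 for Tbx3 and 97.8 for Prdm14. The widths of 3 of the 5 members were above the median. With gaps under 500 bp between peaks closed, the Zfp42 peak measured 1906 bp, at percentile 90.2, and 4 of the 5 were then above the median, which became 1216 bp. The Sall4 peak stayed at 723 bp, but another TSS peak of Sall4 lay 599 bp from it, just beyond this limit. A width in a merged list is the span of every call joined into the region and is not a measure of the amount of signal.

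**Figure D1:**
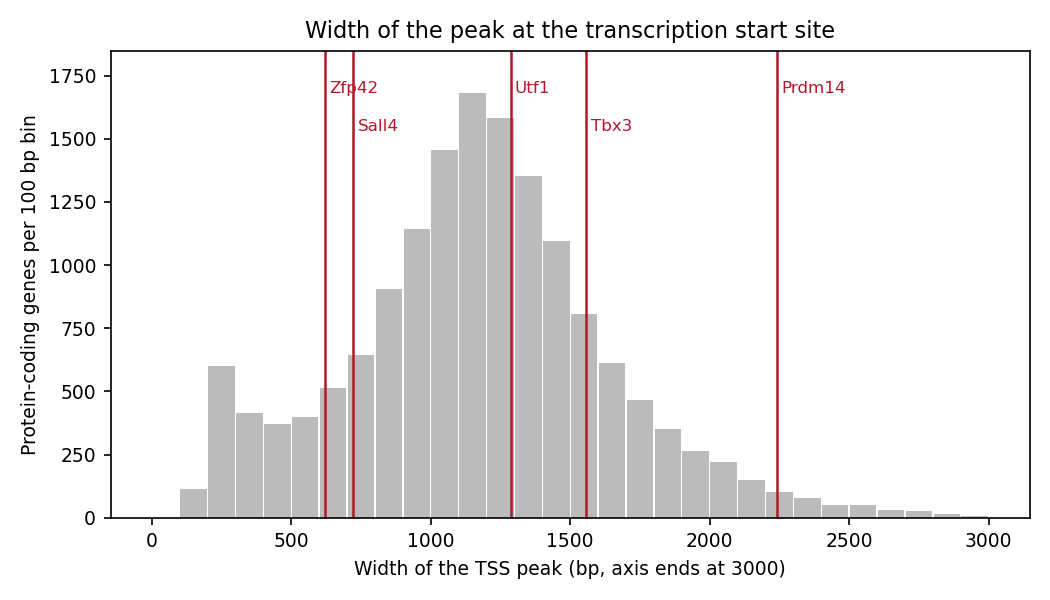
Width of the TSS peak in bp on the horizontal axis and number of other protein-coding genes per 100 bp bin on the vertical axis (grey bars), with the width at each member gene as a red line. Zfp42 (621 bp) and Sall4 (723 bp) lie left of the median of 1172 bp, and Utf1 (1287 bp), Tbx3 (1558 bp) and Prdm14 (2241 bp) right of it. With gaps under 500 bp closed, Zfp42 (1906 bp) would lie right of it too.

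All 5 genes also had more distal peaks within 50 kb than the median gene, and 4 of them by more than 2 times. Tbx3 had 17 distal peaks, Prdm14 16, Zfp42 15, Utf1 11 and Sall4 8, against a median of 5 over the other protein-coding genes with a TSS peak, with quartiles of 3 and 8. These counts stood at percentile 97.2 for Tbx3, 96.5 for Prdm14, 95.7 for Zfp42, 87.8 for Utf1 and 73.6 for Sall4. Of the 15530 other genes, 487 (3.14%) had at least as many distal peaks as Tbx3, 737 (4.75%) at least as many as Zfp42, and 4619 (29.7%) at least as many as Sall4. Neighbouring genes share distal peaks and the genes were chosen with earlier counts for some of them known, so these percentiles are a description and no test was made.

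The window reached 50 kb from every start of a gene, so starts spread apart lengthened it, and sequence near any TSS was set aside. The genes therefore differ in how much sequence of their window can hold a distal peak. Tbx3 had 95.2 kb of sequence that could hold one, Sall4 98.6 kb, Prdm14 92.1 kb, Zfp42 98 kb and Utf1 76.2 kb. Per 100 kb of it, Tbx3 had 17.9 distal peaks, Prdm14 17.4, Zfp42 15.3, Utf1 14.4 and Sall4 8.11, against a median of 5.32 over the other genes. On this scale Utf1, in the most crowded window of the 5, stood at percentile 97.2, close to Zfp42 at 98.3, whereas Sall4 stayed at 74.3. Together the distal peaks of Tbx3 covered 8275 bp, those of Prdm14 8103 bp, of Zfp42 7781 bp, of Utf1 6479 bp and of Sall4 4215 bp, in the same order as the counts, and the median gene had 2613 bp.

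**Figure D2:**
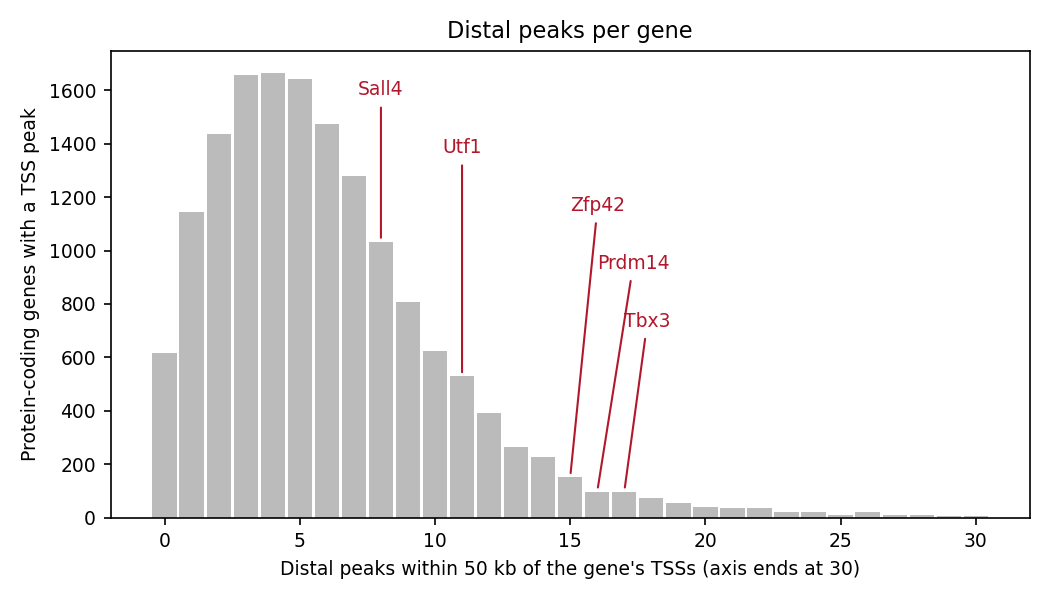
Distal peaks per gene in the 50 kb around its TSSs (horizontal axis, ending at 30) against the number of other protein-coding genes with a TSS peak (vertical axis, grey bars), with the 5 members labelled in red. Sall4 (8) lies on the right flank of the distribution and Utf1 (11), Zfp42 (15), Prdm14 (16) and Tbx3 (17) lie farther out.

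**Figure D3:**
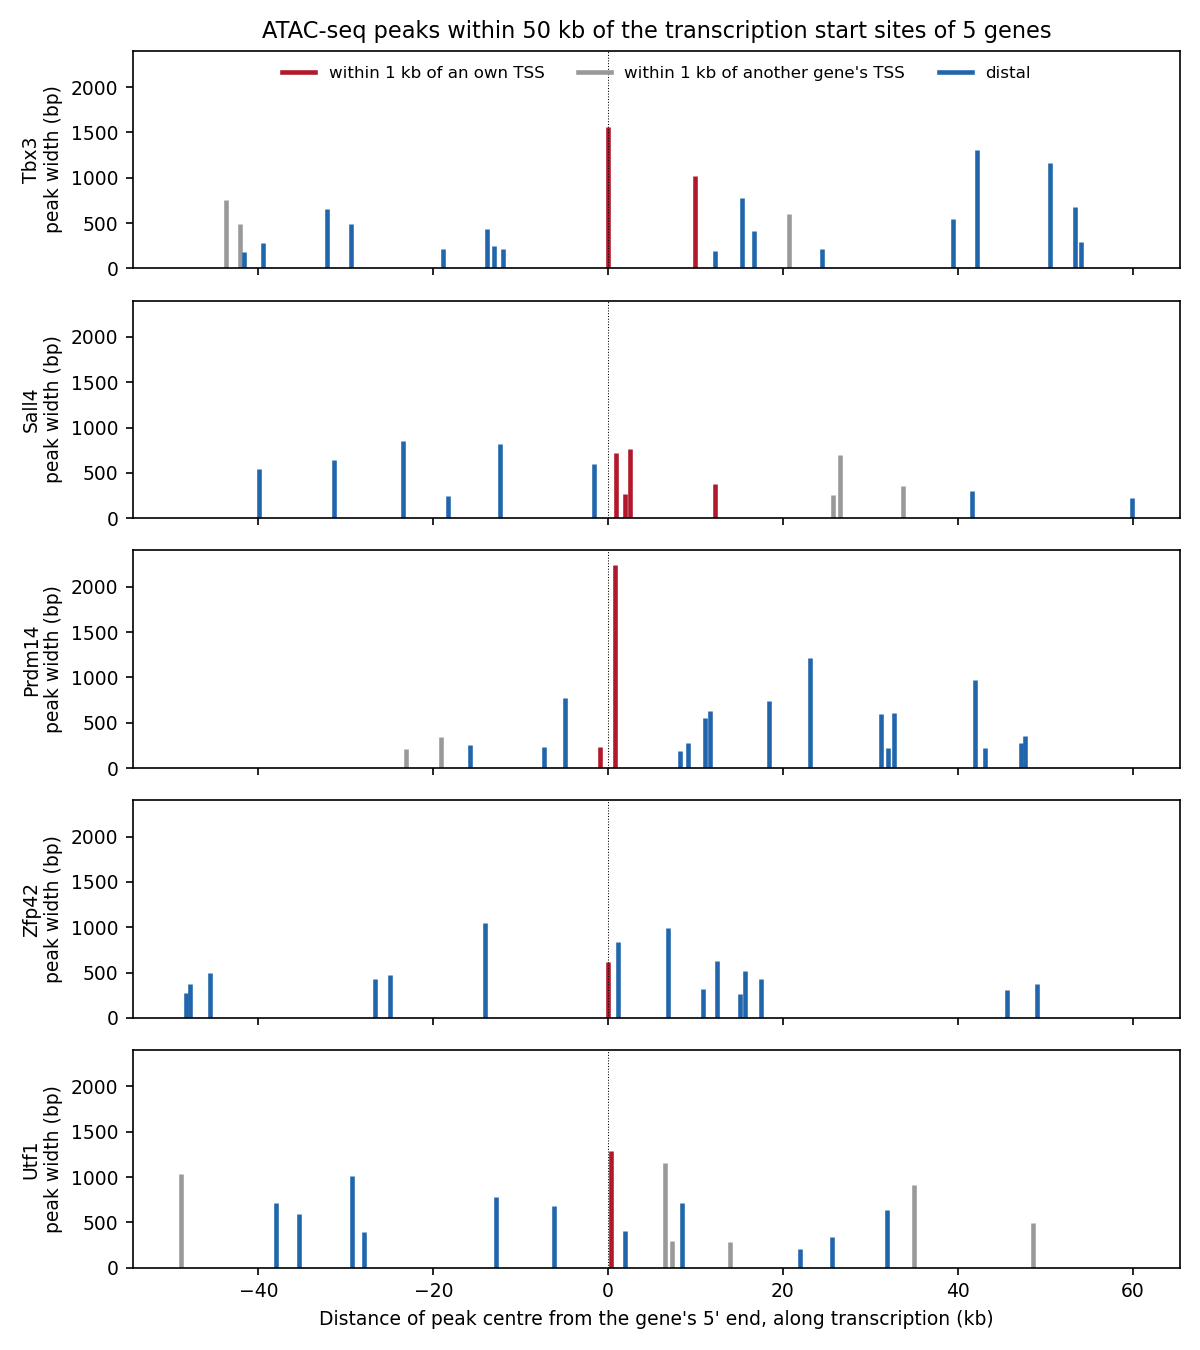
Position of each of the 91 peaks as the distance of its centre from the 5′ end of the gene in kb, positive in the direction of transcription (horizontal axis), with peak width in bp as the height of the line. Red lines are peaks within 1 kb of a TSS of the gene, grey lines peaks within 1 kb of a TSS of another gene, and blue lines distal peaks, which lie on both sides of every gene.

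Tbx3 (ENSMUSG00000018604.18, chromosome 5, 119670669 to 119684724, plus strand) had the most distal peaks, though not under every setting given below. Its TSS peak (119669935 to 119671492) was centred 45 bp downstream of the start, and another peak of 1022 bp (119680073 to 119681094) lay inside the gene, 335 bp from the start of a shorter transcript. No other protein-coding gene had a TSS in the window, but non-coding transcripts did, among them the antisense genes Tbx3os1 and Tbx3os2. All 8 distal peaks upstream of Tbx3 lay in introns of Tbx3os1, some also in Gm16063 or Gm16064, and 2 of the 8 downstream lay in Tbx3os2. The nearest distal peak (119682783 to 119682978, 196 bp), 2632 bp from a TSS, lay on a coding exon of Tbx3 and was the only one inside the gene. The widest (119712222 to 119713526, 1305 bp) lay 32625 bp away and was also the widest of all 67, and the farthest (119724627 to 119724914, 288 bp) lay 44522 bp away. The widest upstream had 655 bp, and every distal peak of Tbx3 above that width lay downstream.

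Prdm14 (ENSMUSG00000042414.7, chromosome 1, 13113457 to 13127163, minus strand) had the widest TSS peak of the 5 genes (13125258 to 13127498), centred 785 bp into the gene, and a small peak of 238 bp (13127985 to 13128222) 941 bp upstream. Its distal peaks were lopsided, with 9 downstream of the gene, 4 in it and 3 upstream, where the window runs into Ncoa2, a gene for a nuclear receptor coactivator. The nearest was upstream (13131741 to 13132510, 770 bp, 4963 bp from the TSS), the widest downstream (13103483 to 13104696, 1214 bp, 23073 bp away) and the farthest (13079292 to 13079641, 350 bp) 47696 bp downstream. The peaks were often close to each other, and those at 13115147 to 13115776 and 13115796 to 13116350, in an intron of Prdm14, were 19 bp apart. For 15 of its 16 distal peaks the nearest protein-coding TSS was that of Prdm14, and for the remaining peak, in an intron of Ncoa2, it was that of Ncoa2.

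Zfp42 (ENSMUSG00000051176.6, chromosome 8, 43295063 to 43306980, minus strand) stood alone, with no TSS of another gene in its window. Its TSS peak (43306667 to 43307287) was centred 3 bp from a start. The nearest distal peak (43305382 to 43306220, 839 bp) was centred in an intron, 1135 bp from the nearest of the annotated starts and so just past the 1 kb limit, and was separated from the TSS peak by 446 bp. Closing this gap joined them into the single peak of 1906 bp given above. The widest distal peak (43320545 to 43321595, 1051 bp) lay 14090 bp upstream and the farthest (43257677 to 43258046, 370 bp) 49074 bp downstream. In all, 6 distal peaks lay upstream, 3 in the gene and 6 downstream, and 12 were intergenic. They formed groups around the gene and towards the ends of the window, with a stretch of 27825 bp between neighbouring peaks downstream. The next peak outside the window was 85863 bp from a TSS.

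Utf1 (ENSMUSG00000047751.9, chromosome 7, 139943789 to 139945112, plus strand) is a short gene, and its TSS peak (139943536 to 139944822) covered most of it. The nearest distal peak (139945575 to 139945976, 402 bp) lay just past the end of the gene, 462 bp beyond it and 1987 bp from the TSS, and held the composite motif shown above. The widest (139913960 to 139914972, 1013 bp) lay 29323 bp upstream and the farthest (139905439 to 139906149, 711 bp) 37995 bp upstream. All 6 upstream distal peaks lay in Kndc1, the neighbouring gene, 4 in introns and 2 on exons, and 4 of the 5 downstream lay in the non-coding gene Gm16201, of which 1 was also on a UTR exon of 6430531B16Rik. A further 6 peaks of the window lay at TSSs of Kndc1, Gm16201, Mir202, 6430531B16Rik and Adam8. The nearest protein-coding TSS was that of Utf1 for only 2 of its 11 distal peaks, against 17 of 17 for Tbx3 and 15 of 15 for Zfp42, and a count of these peaks alone put Utf1 at percentile 52.9.

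Sall4 (ENSMUSG00000027547.17, chromosome 2, 168748332 to 168767943, minus strand) had the fewest distal peaks but the most TSS peaks, 4 along its 6 annotated starts. The peak nearest to a start (168766715 to 168767437) was 41 bp from it and 867 bp from the annotated 5′ end of the gene. The others measured 262 bp (168765854 to 168766115), 762 bp (168765078 to 168765839) and 373 bp (168755515 to 168755887), the first of them also near the start of another gene, Gm14261. No distal peak lay inside Sall4. The 6 upstream were all intergenic, from the nearest (168769281 to 168769876, 596 bp) 1636 bp from a start to one 39895 bp away, and included the widest (168790949 to 168791802, 854 bp) at 23433 bp. The other 2 lay downstream in introns of Atp9a, a gene for a phospholipid flippase, the farthest (168707869 to 168708090, 222 bp) 47963 bp away. For 6 of the 8 the nearest protein-coding TSS was that of Sall4. In a window of 100 kb the order changed, since Sall4 then had 23 distal peaks and stood at percentile 94.9, above Zfp42 with 18 at percentile 86.2 and Utf1 with 14 at percentile 71.9.

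Taking the 67 distal peaks as a set, 29 lay upstream of their gene, 8 in it and 30 downstream, and 36 were intergenic, 24 intronic and 7 exonic. Their median width was 477 bp, from 176 to 1305 bp, against 380 bp for all 89794 distal peaks of the list, and 40 of 67 were wider than that median. Only 5 lay within 5 kb of a start of their gene and 31 within 20 kb. The GC content had a median of 50.2% against 47.7% for all distal peaks, and differed between genes, with medians of 54.3% at Tbx3, 52.0% at Utf1, 51.8% at Sall4, 46.9% at Zfp42 and 45.0% at Prdm14. The ratio of observed to expected CpG had a median of 0.243 in the members' distal peaks and 0.210 in all distal peaks, whereas it was 0.870 in the TSS peak of Tbx3 and 0.467 in that of Zfp42. Annotated repeats made up over 50% of the sequence in 6 of 67 peaks, 3 of them at Zfp42, against 15.5% of all distal peaks.

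The composite OCT4::SOX2 motif was found in 1 of the 67 distal peaks (1.49%, Wilson 95% confidence interval 0.264 to 7.98), against 0.766% of all distal peaks. This peak was the 402 bp region past the 3′ end of Utf1. The match, CATTGTTATGCTAGT, lay 1899 bp from the TSS and 88 bp from the centre of the peak on the minus strand. It kept all bases of the SOX part and differed from the searched letters by A12T and A14G, counted from 1 at the 5′ end of the composite motif with the consensus base first. With 1 mismatch allowed no distal peak of the members had a match, against 0.059% of all distal peaks. With 3 allowed the Utf1 peak remained the only peak with one, while 6.07% of all distal peaks then had a match. The 10 TSS peaks held no composite match, and 0.597% of all peaks within 1 kb of a TSS held one. The search by fixed letters was strict, with a match in 688 of all 89794 distal peaks. The paper searched with HOMER and reported strong enrichment of the canonical motif at bound loci that lost accessibility without OCT4. A peak without a match here can still hold a form of the motif that the letters miss.

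The OCT octamer alone was found in none of the 67 distal peaks (Wilson 95% interval 0 to 5.42), against 3.05% of all distal peaks. By the simpler rule that a count of 0 allows up to 3 counts, the upper limit is 4.48%. It was found in 1 of the 10 TSS peaks, that of Zfp42, against 3.12% of all peaks within 1 kb of a TSS. This octamer, on the plus strand at 43307188 to 43307195, lay 212 bp upstream of the nearest GENCODE start, within the promoter shown above. Of the RefSeq promoter stretches of 250 bases, 1.61% of 27025 held an octamer. The STAT3 motif was found in 1 TSS peak, that of Sall4, against 3.09% of all such peaks, and CTCF (up to 1 mismatch) in both TSS peaks of Tbx3 and the wide TSS peak of Prdm14, against 18.4%.

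The remaining motifs were found in at most 8 of the 67 distal peaks each, and the intervals of their shares, with the exception of ESRRB, held the share of all distal peaks. SOX was found in 6 of 67 (8.96%, interval 4.17 to 18.2) against 9.52% of all distal peaks, in 2 peaks each of Sall4 and Prdm14 and 1 each of Tbx3 and Zfp42. KLF was found in 5 (7.46%, interval 3.23 to 16.3) against 6.03%, in 2 peaks each of Tbx3 and Zfp42 and 1 of Prdm14. STAT3, the effector of LIF signalling, was found in 2 (2.99%) against 2.1%, in the widest distal peak of Zfp42, which also held a KLF match, and in a downstream peak of Prdm14. TBX, the motif of the T-box family to which TBX3 belongs, was found in 1 peak (1.49%) against 2.49%, and that peak was at Tbx3. The PRDM14 motif (GGTCTCTAA) was found in none of the 67 (interval 0 to 5.42) against 0.371%, the peaks of Prdm14 included. CTCF was found in 8 (11.9%, interval 6.18 to 21.8) against 16.1%, 3 of them at Utf1.

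ESRRB, the motif of a nuclear receptor of the naive network, was found in 5 of 67 distal peaks (7.46%, interval 3.23 to 16.3) against 3.11% of all distal peaks, in 3 of the 8 peaks of Sall4 and 2 of the 16 of Prdm14. All 3 matches at Sall4 lay in annotated repeats and both matches at Prdm14 outside them, while 42.7% of the ESRRB matches in all distal peaks lay in repeats. These intervals cover counting error only, treat each peak as separate and do not account for the larger width of the members' peaks. They are also not adjusted for the 9 motifs looked at. Per 100 kb of peak sequence there were 14.3 ESRRB matches in the members' distal peaks and 6.64 in all distal peaks. For SOX these densities were 17.2 and 21.5, and for KLF 14.3 and 14.1. At 44 of the 67 distal peaks (65.7%) none of the 9 motifs had a match, close to the 64% of all distal peaks without any. The remaining 23 comprised 7 of Prdm14, 5 of Sall4, 4 each of Tbx3 and Utf1 and 3 of Zfp42, and 5 of them (7.46% of the 67) held matches to 2 motifs, against 6.7% of all distal peaks with at least 2. A match is a match of letters, and occupancy by a factor was not measured here.

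**Figure D4:**
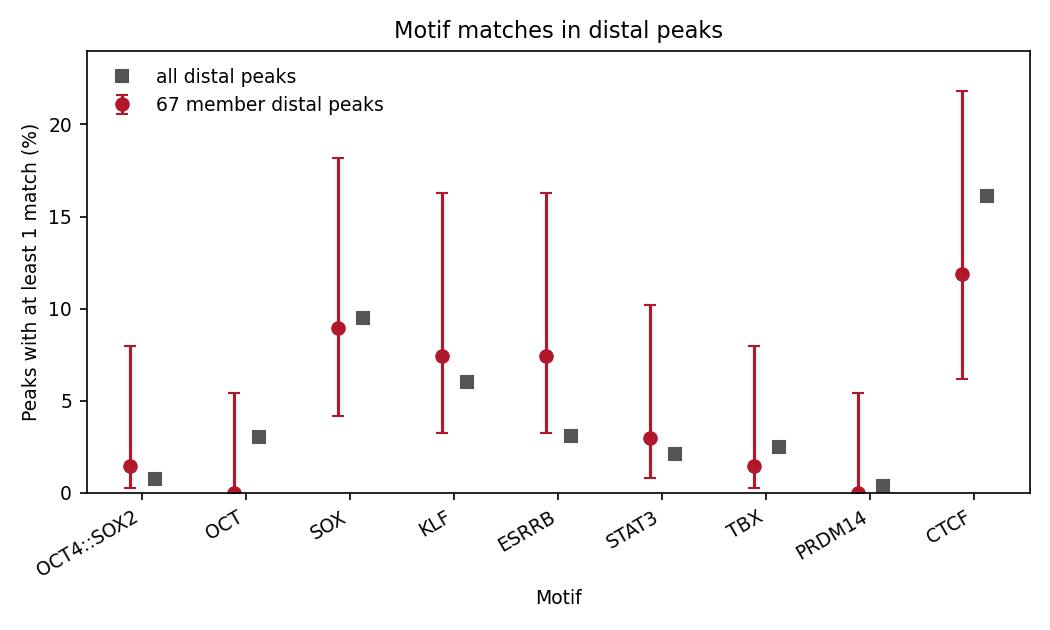
Percent of distal peaks with at least 1 match to each of 9 motifs, for the 67 distal peaks of the members (red, with Wilson 95% confidence intervals) and for all 89794 distal peaks (grey squares). The ESRRB share of the members (7.46%) has an interval that starts just above the share of all distal peaks (3.11%), and the other 8 intervals include it. Of the 5 ESRRB matches 3 lay in repeats. The intervals treat each peak as separate, are not adjusted for the 9 motifs and are not a test.

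To place the members among genes of known role, distal peaks were counted in the same way for 20 other pluripotency genes and 20 genes taken as lineage genes. Whether the listed genes were active in these cells was not measured. The members had a median of 15, the other pluripotency genes a median of 12, from 2 at Nr0b1 to 26 at Esrrb, and the lineage genes a median of 7, from 2 at Mixl1 to 17 at Tfap2c. More than the median of 5 was reached by 5 of 5 members, 16 of 20 pluripotency genes and 12 of 20 lineage genes. Of the 15530 other genes, 1642 had exactly 5, so fewer than 50% lay above it. The lineage genes were not far above this share. The list counts include genes without a TSS peak, while the median is over genes with one. Sall4, with 8, lay below the median of the pluripotency list and just above that of the lineage list. A TSS peak was present at 19 of the 20 pluripotency genes and at all 20 lineage genes, with median widths of 1149 and 948 bp. As a check of the labelled cell type, TSS peaks were present at 7 of 8 ES cell markers, 3 of 4 trophoblast markers and 4 of 4 fibroblast markers, so that their presence did not separate these lists. The median number of distal peaks was 12 for the ES cell markers, 9.5 for the trophoblast markers and 3.5 for the fibroblast markers, with 7 of 8, 3 of 4 and 1 of 4 genes above the median of 5. The marker check had been planned for TSS peaks only, so these distal counts are not a check of the cell type. All 8 ES cell markers were also in the pluripotency list, and some trophoblast markers were in the lineage list.

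**Figure D5:**
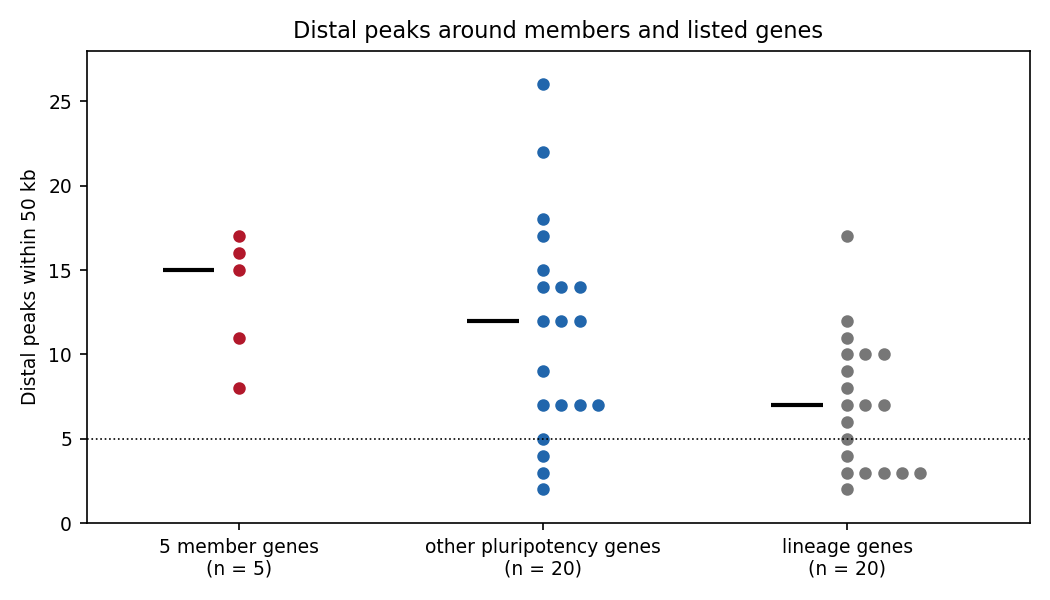
Distal peaks within 50 kb of a TSS (vertical axis) for each of the 5 member genes, 20 other pluripotency genes and 20 lineage genes (1 point per gene). Short black bars are medians (15, 12 and 7) and the dotted line is the median of 5 over the other protein-coding genes with a TSS peak, and the groups overlap.

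At the limits of the rule, the farthest peak counted was the one of Zfp42 at 49074 bp, and the nearest peaks left out lay at 50795 bp from Prdm14, 50952 bp from Utf1, 52850 bp from Sall4 and 54241 bp from Tbx3. Between TSS and distal peaks, the upstream peak of Prdm14 at 941 bp fell just inside the limit of 1 kb and the intronic peak of Zfp42 at 1135 bp just outside it.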

How the data were processed

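ATAC-seq had been performed on 54 samples. Per the labels and methods, the authors aligned reads to GRCm38 with STAR 2.6.1c, removed duplicates with Picard, called peaks with MACS2 2.1.1.20160309 on paired-end fragments and merged them with BEDTools. Whether peaks were called per library or on pooled replicates is not given in the sources used here. The deposited list holds chromosome, start and end only. Merging joins overlapping calls, so a width can exceed that of any single call. The methods also describe filters on peaks above 5 kb, on peaks called in input samples and on blacklisted regions. The list held 11 peaks above 5 kb, so it was not fully filtered by size, and whether the other filters had been applied was not tested.

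Positions are 1-based. Peak centres were compared with GENCODE M21 transcripts on GRCm38.p6, whose chromosomes held all peaks. A peak within 1 kb of any TSS was proximal and otherwise distal. Classes were read at the peak centre. The TSS peak of a gene was the peak centred nearest to one of its TSSs, within 1 kb. Percentiles count ties as 0.5 and refer to the 15530 other protein-coding genes with a TSS peak. Shares have Wilson 95% intervals. Repeats are the soft-masked bases, and a match counted as in repeat when over 50% of its bases were. Of the 5 genes, 2 were found in the RefSeq promoter table, of which the stretch of Zfp42 overlaps no exon and is shown. No test was made, since the list has no value per sample. Each member was described by its TSS peak, its nearest, farthest and widest distal peaks and any peak with the composite motif, and of the listed genes only those with the lowest and highest counts are named. The members and gene lists were chosen with earlier results of these data known. The counting and motif search were tested on simulated data. Python 3.11.15, numpy 2.4.6, scipy 1.17.1, pysam and matplotlib were used.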

Additional observations from a re-analysis of the deposited data

How the results depend on the processing

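The 67 distal peaks of the 5 genes became 31 with a window of 20 kb and 105 with a window of 100 kb, and stayed between 55 and 73 under the 9 other settings of limits, widths, annotation and joining. Each member stayed above the median of the other genes under all of these except that Utf1, counted only with peaks nearest to its own TSS, was equal to the median of 2. With starts of protein-coding transcripts only, Tbx3 (14) fell below Prdm14 (16) and Zfp42 (15). With a proximal limit of 500 bp Prdm14 (19) passed Tbx3 (18), and with 2500 bp both had 16. Tbx3, Prdm14 and Zfp42 tied at 8 within 20 kb and at 15 with peaks of at least 200 bp. Tbx3 led alone under the other settings. Per 100 kb, the members together had 14.6 distal peaks, and 11.2 to 16.6 under other limits. All 5 genes kept a TSS peak when the peak had to contain the TSS or be centred within 2500 bp, and 4 of 5 when it had to be centred within 500 bp, where Prdm14 lost it. The median width of the 5 TSS peaks was 1287 bp, and 1558 bp with gaps under 500 bp joined, which merged the Zfp42 TSS peak with the peak next to it. The count of 1 distal peak with the composite motif became 0 with 1 mismatch and was 1 with 3 mismatches and in the central 300 bp of each peak. No paired analysis was possible because no result comes from a test and the list has no columns for samples. The list gives no depth, so a region missing from it cannot be told apart from a region with too few reads.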
